A study of Mus musculus with 3 samples.

Results

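The interleukin-6 and oncostatin M axis was described here through 9 genes (Il6, Osm, Lif, Il11, Osmr, Il6st, Il6ra, Socs3 and Stat3) of the 32285 genes in the matrices, each found by its symbol as 1 row and measured in every cell class of mouse dorsal skin. The cytokines interleukin-6, oncostatin M, leukemia inhibitory factor and interleukin-11 form a family that signals through a shared membrane protein, gp130, the product of Il6st. Each ligand reaches gp130 with a receptor chain of its own, for interleukin-6 the product of Il6ra and for oncostatin M the product of Osmr. The bound complex activates Janus kinases, which phosphorylate the transcription factor STAT3, and STAT3 drives Socs3, whose product blocks the same receptor complex. In skin, oncostatin M is best known as a product of leukocytes that acts on keratinocytes and other cells that line or support the tissue.

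The data were single-cell transcriptomes of CD45+ bead-enriched cells, with 1 library in each of 3 groups and all cells from male C57Bl/6 dorsal skin in telogen at 8 weeks of age. WT_Ctrl was wild-type skin without UVB, WT_UV was wild-type skin after 3 UVB exposures, and RP_UV was skin of genotype RP after 3 UVB exposures. RP mice carry Rosa26-rtTA and Tre-Ptgs2, a doxycycline-inducible rat Ptgs2 transgene that the study describes as global and, by staining, as raising Cox-2 mainly in keratinocytes of the epidermis and in infiltrating immune cells. The series held no RP library without UVB, so genotype and UVB cannot be told apart in the comparison of RP_UV with WT_Ctrl, and whether the wild-type mice of these libraries received doxycycline was not given in the sources used here. With 1 library per group there was no replicate check, and no difference was tested between conditions. Each level is in CPM, the unique molecular identifiers (UMIs) of a gene summed over the cells of a class in a library, per 1000000 UMIs of all genes there. Every interval is an exact 95% interval that covers counting error only: Poisson for a level, conditional binomial for a ratio of levels, and Clopper-Pearson for a share.

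The cell filter kept 5309, 5225 and 6070 cells in WT_Ctrl, WT_UV and RP_UV, with medians of 4246, 10557 and 3774 UMIs per cell. WT_UV was read on another flow cell than the other libraries, so the sequencing run and its greater depth cannot be told apart from the group in any comparison with WT_UV. The libraries shared between 8 and 11 cell barcodes per pair. Cells were placed in classes by marker genes, and each class is a rebuilt, marker-like group (macrophage- or monocyte-like, keratinocyte-like and so on), called below by the short name. In every class and library checked, all markers of the panel, or all but 1, were higher than in the other named cells, and none was at 0. Clusters that met no name held 11.1%, 20% and 11.9% of cells in WT_Ctrl, WT_UV and RP_UV. Many non-immune cells remained after enrichment, and the yield of the beads sets how many cells of each class were read. Ptgs2, the overexpressed gene, had 14.4 CPM in WT_Ctrl, 117 in WT_UV and 486 in RP_UV, and in keratinocytes 5.54, 5.74 and 595. How reads of the rat transgene were counted was not given in the sources used here.

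The 250 bases before the start sites are shown from RefSeq (GRCm38.p6) for Socs3, the feedback gene, and for the ligand genes Il6 and Lif, because of the motifs they hold. Promoters were matched for 8 of the 9 genes, with 2 for Il11, and Osm had no entry. The motif TTCNNNGAA, which STAT factors bind, and the motif TGANTCA, which AP-1 factors bind, each read the same on both strands, and neither contains the other. TTCNNNGAA was in 7.02% and TGANTCA in 6.75% of the same window of all 32851 promoters. Of the 9 promoters of these genes, 1 held TTCNNNGAA (Socs3) and 3 held TGANTCA (Il6, Lif and 1 of Il11). Capitals mark the motif, which began 154 bases before the start in Socs3 (chr11:117969367-117969616, minus strand), 249 in Il6 (chr5:30012864-30013113, plus strand) and 228 in Lif (chr11:4257318-4257567, plus strand).
Socs3: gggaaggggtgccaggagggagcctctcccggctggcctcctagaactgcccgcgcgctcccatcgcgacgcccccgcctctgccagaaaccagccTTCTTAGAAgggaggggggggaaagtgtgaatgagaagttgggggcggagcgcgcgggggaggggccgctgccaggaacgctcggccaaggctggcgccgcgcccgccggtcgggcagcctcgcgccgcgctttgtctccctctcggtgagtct
Il6: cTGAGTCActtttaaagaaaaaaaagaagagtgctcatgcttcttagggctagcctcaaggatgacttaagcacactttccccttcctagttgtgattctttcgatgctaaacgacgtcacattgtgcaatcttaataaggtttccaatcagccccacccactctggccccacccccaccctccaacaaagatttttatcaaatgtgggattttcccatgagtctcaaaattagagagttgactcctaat
Lif: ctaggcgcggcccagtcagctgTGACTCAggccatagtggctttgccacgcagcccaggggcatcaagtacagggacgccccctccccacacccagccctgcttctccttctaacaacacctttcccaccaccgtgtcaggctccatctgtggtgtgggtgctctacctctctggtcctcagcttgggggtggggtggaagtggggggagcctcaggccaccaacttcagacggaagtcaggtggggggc
A match describes these letters and is not evidence of binding.

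Over all kept cells, Osm was 12.8-fold (9.91 to 16.8) higher in WT_UV than in WT_Ctrl and 13.1-fold (10.1 to 17.3) higher in RP_UV than in WT_Ctrl. The level of Osm was 2.33 CPM (60 UMIs) in WT_Ctrl, 29.8 (1923 UMIs) in WT_UV and 30.4 (886 UMIs) in RP_UV. Il6 followed another order, at 3.41 (88 UMIs), 5.64 (364 UMIs) and 11.2 (327 UMIs), so RP_UV was 3.29-fold (2.59 to 4.21) above WT_Ctrl and 1.99-fold (1.71 to 2.32) above WT_UV. Socs3, the feedback inhibitor, was at 110, 108 and 207, so WT_UV lay at the level of WT_Ctrl and RP_UV above both. Stat3 stayed within a narrow range, at 106, 111 and 122. The receptor genes Il6st (90.7, 63.5 and 79.3) and Il6ra (133, 112 and 62.5) were lowest in WT_UV and RP_UV respectively. These sums mix the classes, whose shares of cells differed between libraries, so the classes are taken in turn, ligands first.

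The classes that held the ligand UMIs differed between libraries. Macrophages and monocytes held 30%, 56.8% and 32.1% of the Osm UMIs of WT_Ctrl, WT_UV and RP_UV. They made up 35.5%, 44.7% and 36.6% of cells. The interval of their Osm share lay above their share of cells in WT_UV (54.5 to 59) and below it in RP_UV (29 to 35.2). In WT_Ctrl it held that share (18.8 to 43.2). In RP_UV neutrophils held a further 28.3% (25.4 to 31.4) of Osm while making up 9.23% of cells. Endothelial cells, pericytes or smooth muscle cells, and fibroblasts held 27.8%, 27.2% and 8.56% of the Il6 UMIs of RP_UV. In WT_UV 46.4% (41.2 to 51.7) of Il6 lay in 13 basophils, which were 0.249% of its cells. In WT_Ctrl dendritic cells held the largest share of Il6, 36.4% (26.4 to 47.3). Unnamed clusters held 35%, 35.4% and 35.2% of Osm in the libraries, so that part could not be placed.

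**Figure D1:**
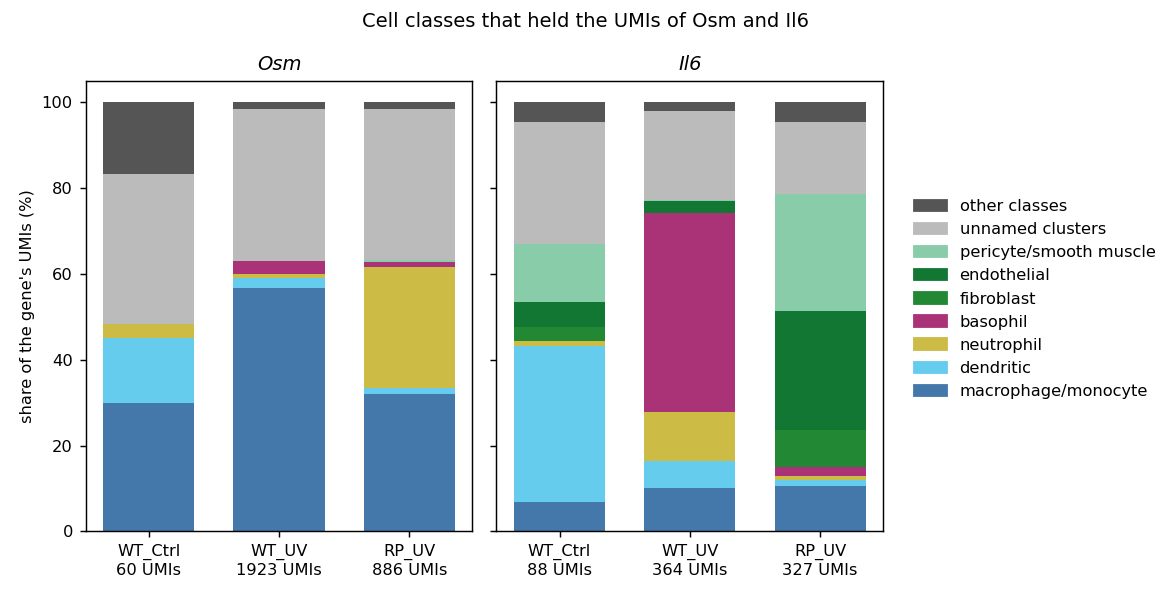
Bars show the percent of the UMIs of Osm (left) and Il6 (right) that each cell class held in each library, with the gene's UMIs in the library under each bar. Macrophages and monocytes held 56.8% of Osm in WT_UV, basophils 46.4% of Il6 in WT_UV, and endothelial cells 27.8% of Il6 in RP_UV.

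In macrophages and monocytes, the phagocytes that dominated every library, Osm was at 2.53 CPM (1.5 to 3.99) in WT_Ctrl, 39.6 (37.3 to 42.1) in WT_UV and 24.8 (22 to 27.8) in RP_UV. The WT_UV level was 15.7-fold (9.88 to 26.6) and the RP_UV level 9.8-fold (6.09 to 16.8) that of WT_Ctrl, and RP_UV stood at 0.625 (0.546 to 0.713) of WT_UV. Without thinning, 0.69%, 17% and 9.22% of these cells carried an Osm UMI. After every cell was thinned to 1000 UMIs, the shares were 0.167% (0.0344 to 0.486), 3.1% (2.43 to 3.9) and 2.01% (1.46 to 2.7). Keratinocytes and fibroblasts, which should lack Osm, had thinned shares of 0% to 0.101% in the UVB libraries, and 0 of 458 keratinocytes in WT_UV allows a share of up to 0.655%. Pericytes or smooth muscle cells of RP_UV had 2 of 239 thinned cells, a share of 0.837% (0.102 to 2.99), whose interval overlapped that of the RP_UV macrophages.

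Within the class, Osm was concentrated in few clusters. A cluster of 301 WT_UV cells, 12.9% of the class there, held 546 Osm UMIs, or 50%, at 168 CPM (154 to 183). A second cluster of 182 WT_UV cells, 7.8% of the class, held a further 30.4% at 137 (122 to 152). These clusters had 15 and 9 cells in RP_UV and 4 cells each in WT_Ctrl, and they were singled out after their values were seen. The first was led by Rgs1, Thbs1, Tnfaip3, Nr4a1 and Dusp2, and its 10 leading genes, Osm among them, were 5.59- to 6.92-fold higher than in the rest of the class over all libraries (with 10 CPM added to both levels), and the second by Il1b (13.3-fold higher), the cytokine interleukin-1 beta, and Plaur, the urokinase receptor. In RP_UV the Osm UMIs were spread, with 37.7% in a cluster of 437 cells at 43.3 (35.5 to 52.4).

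The macrophage class was made of different clusters in each library. The largest WT_Ctrl cluster had 599 of 1885 cells, the largest WT_UV cluster 533 of 2333 and the largest RP_UV cluster 716 of 2224, and they were 3 separate clusters. In 8 clusters with at least 30 cells in both WT_Ctrl and WT_UV, the interval of the Osm ratio lay above 1 in 2, at 10.1 (1.47 to 435) and 10 (1.61 to 415), each from 1 WT_Ctrl UMI, and held 1 in the others. Between WT_Ctrl and RP_UV only 2 clusters reached 30 cells in both, and these had no Osm UMI in RP_UV. Clusters with at least 30 cells in both UVB libraries were also compared. Where both had Osm UMIs, RP_UV over WT_UV was 4.19 (1.17 to 22.8), 1.78 (0.86 to 4.16) and 0.937 (0.521 to 1.63). The rest had no Osm UMI in RP_UV and at most 11 in WT_UV. The lower class level of RP_UV than of WT_UV was therefore not seen beyond counting error within such a cluster.

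In neutrophils, short-lived granulocytes, Osm was at 86.4 CPM (50.3 to 138) in WT_UV (17 UMIs, 58 cells) and 273 (240 to 308) in RP_UV (251 UMIs, 560 cells). WT_Ctrl had 15 neutrophils, too few to describe. Of the 17 WT_UV UMIs, 13 came from 1 cell with 93 UMIs of Mcpt8, a basophil protease, and no S100a8, a neutrophil marker. Without that cell the WT_UV level was 21.3 (5.8 to 54.5). The thinned share of RP_UV neutrophils with an Osm UMI was 14.4% (11.4 to 17.8) at a median of 1315 UMIs per cell. It was the highest of any class with at least 30 cells in a library. Osm was present in all 4 RP_UV neutrophil clusters of 30 cells or more, at 195 to 302 CPM.

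In dendritic cells, which present antigen to T cells, the Osm level in WT_Ctrl was 2.37 CPM (1.08 to 4.49), that in WT_UV 7.63 (5.57 to 10.2) and that in RP_UV 29.1 (15 to 50.9). The RP_UV value came from 12 UMIs in 6 of 83 cells, 7 of them in 1 cell. RNA of neutrophil genes (S100a8, S100a9, Retnlg, Csf3r and Cxcr2) summed to 3.68, 55.4 and 553 CPM in the same dendritic cells, with 1, 0 and 0 of these 5 genes at 0, and its part in the result was not tested. In macrophages Csf3r was at 37.1, 51 and 23.5, and the other 4 genes summed to 0.561, 5.59 and 49.7, with 2, 1 and 0 of them at 0; their part in the macrophage Osm was not tested either. Most RP_UV dendritic cells (57.8%) lay in a cluster that held 14.2% of those of WT_Ctrl, and in it Osm had 0 UMIs in WT_Ctrl and 4 in RP_UV. Outside the leukocytes Osm was at or near 0: keratinocytes had 0, 3 and 3 UMIs, fibroblasts 0 and 1 in WT_Ctrl and RP_UV, and endothelial cells none there, where a count of 0 allows up to 19.6 and 3.55 CPM. Pericytes or smooth muscle cells had none in WT_Ctrl and 3 UMIs in RP_UV, at 2.79 CPM (0.575 to 8.14), beside the 2.53 of WT_Ctrl macrophages.

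Among classes with at least 30 cells in a library, Il6 was highest in endothelial cells and in pericytes or smooth muscle cells. The WT_UV neutrophils were apart from this, as their 41 UMIs came from 1 cell described below. Endothelial cells, which line vessels, had 32.7 CPM (10.6 to 76.4; 5 UMIs, 59 cells) in WT_Ctrl and 108 (86.6 to 132; 91 UMIs, 261 cells) in RP_UV, a ratio of 3.29 (1.36 to 10.4). Pericytes or smooth muscle cells, a contractile class, had 38.3 (19.8 to 67, from 12 UMIs in 82 cells) and 82.7 (66.4 to 102, from 89 UMIs in 274 cells). The ratio was 2.16 (1.17 to 4.33). Fibroblasts, which build the dermal matrix, had 1.91 (0.394 to 5.58; 3 UMIs, 352 cells) and 20 (13.3 to 28.9; 28 UMIs, 399 cells), a ratio of 10.5 (3.23 to 53.8). The intervals of the endothelial and the pericyte levels overlapped within each library, and that of fibroblasts lay below both in RP_UV. WT_UV had 19 endothelial cells, 22 pericytes or smooth muscle cells and 9 fibroblasts, so these classes were not compared with it.

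The clusters behind these classes differed between libraries. Of the WT_Ctrl fibroblasts, 148 and 119 lay in clusters that held 11 and 15 RP_UV cells, and of the RP_UV fibroblasts 192 and 58 lay in clusters that held 7 and 1 WT_Ctrl cells. In the 1 fibroblast cluster with at least 30 cells in both (36 and 72 cells), Il6 was at 4.48 and 30.6 CPM (1 and 14 UMIs), a ratio of 6.83 (1.04 to 289). Of the 59 WT_Ctrl endothelial cells, 38 lay in a cluster with 133 RP_UV cells, where Il6 was at 11 and 51.6, a ratio of 4.68 (0.744 to 195) from 1 and 19 UMIs. In the pericyte cluster with 30 and 90 cells it was at 20.1 and 80.8, a ratio of 4.02 (1.28 to 20.3).

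The Il6 of endothelial cells and of pericytes or smooth muscle cells was spread over cells. In RP_UV, 56 of 261 endothelial cells (21.5%) and 44 of 274 pericytes or smooth muscle cells (16.1%) carried a UMI of Il6, and the thinned shares were 11% (7.18 to 15.9) and 6.28% (3.55 to 10.1). No T cell of WT_Ctrl or RP_UV and 1 of 458 in WT_UV carried a UMI of Il6. The cell with the most Il6 held 6 of the 91 endothelial UMIs and 18 of the 89 pericyte UMIs, and without it the levels were 101 (80.9 to 125) and 66.5 (51.9 to 83.9). Of 2 endothelial clusters of over 100 RP_UV cells, one held 79.1% of the UMIs at 154 (121 to 194), and 9 WT_Ctrl cells, against 51.6 (31.1 to 80.6) in the other. Stress genes that tissue digestion can induce (13 genes, Fos and Jun among them) summed to 7587 CPM in WT_Ctrl and 9399 in RP_UV endothelial cells, to 9906 and 8240 in pericytes and to 5448 and 9041 in fibroblasts. They moved with Il6 in endothelial cells and fibroblasts and against it in pericytes. RNA of 5 keratinocyte genes was also higher in RP_UV, at 85.1 and 382 CPM in endothelial cells, 125 and 237 in pericytes and 218 and 360 in fibroblasts. Of the 5 genes, 1 was at 0 in the first value of endothelial cells and of pericytes, and none elsewhere. RP_UV keratinocytes themselves had 1.27 CPM of Il6. The part of the stress genes in the result was not tested.

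In leukocytes Il6 was low outside basophils. Macrophages had 6, 37 and 35 UMIs, or 0.842 (0.309 to 1.83), 1.34 (0.946 to 1.85) and 3.05 (2.13 to 4.24) CPM. A single macrophage held 20 of the 37 UMIs of WT_UV and another 17 of the 35 of RP_UV, and without them the levels were 0.618 (0.36 to 0.989) and 1.57 (0.931 to 2.48). Dendritic cells had 8.41 (5.76 to 11.9), 3.9 (2.47 to 5.85) and 9.71 (2.64 to 24.9), and WT_UV stood at 0.463 (0.259 to 0.817) of WT_Ctrl. Keratinocytes had no Il6 UMI in WT_Ctrl or WT_UV and 10 in 7 cells of RP_UV, at 1.27 (0.609 to 2.33).

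Basophils, granulocytes that release type 2 cytokines, numbered 0, 13 and 5 cells and were below the limit of 30 cells, so they are given here because of their values. In WT_UV they held 169 UMIs of Il6 in 12 of 13 cells, 58 of Osm in 10 cells and 61 of Lif in 9 cells, and 7 cells held all of these genes. The levels were 2586 (2211 to 3007), 888 (674 to 1147) and 933 (714 to 1199) CPM. Mcpt8 was in 11, Gata2 in 12 and Ms4a2 in 12 of the cells, and none had S100a8. The 5 cells of RP_UV had 7 UMIs of Il6, 9 of Osm and 3 of Lif. The single Mcpt8 cell among the WT_UV neutrophils carried 41 UMIs of Il6 and 40 of Lif, which was all of the Il6 and all but 1 UMI of the Lif of that class. Together these 14 cells held 57.7% of the Il6 UMIs and 71.6% of the Lif UMIs of WT_UV, so the library values of both genes rest on them.

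Lif and Il11 were too scarce to follow by class. Lif had 17, 141 and 26 UMIs over all kept cells, at 0.659, 2.18 and 0.893 CPM. Il11, a ligand linked to fibrosis, had 44, 58 and 19 UMIs, at 1.71 (1.24 to 2.29), 0.898 (0.682 to 1.16) and 0.652 (0.393 to 1.02), so both UVB libraries lay below WT_Ctrl. Its largest named source was dendritic cells in WT_Ctrl and WT_UV, with 16 and 14 UMIs.

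**Figure D2:**
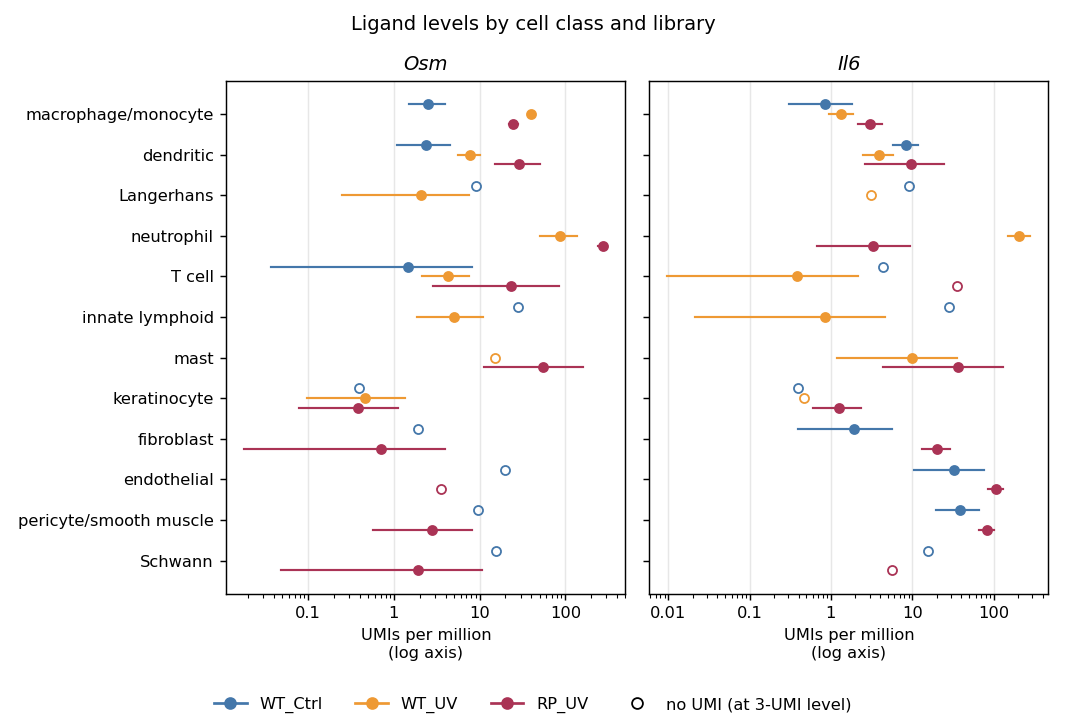
Points are levels of Osm (left) and Il6 (right) in CPM on a log axis, by cell class and library for classes with at least 30 cells, and lines are exact 95% Poisson intervals; open circles mark classes with no UMI, placed at the level of 3 UMIs. Osm lay in leukocytes, with RP_UV neutrophils at 273. Il6 was highest in endothelial cells, at 108 in RP_UV, and in pericytes or smooth muscle cells. The WT_UV neutrophil Il6 of 208 came from 1 cell.

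Osmr, which pairs with gp130 to bind oncostatin M, was highest in endothelial cells, at 151 CPM (95.4 to 226) in WT_Ctrl and 91.1 (71.9 to 114) in RP_UV. Pericytes or smooth muscle cells followed at 95.9 (64.7 to 137) and 78 (62.2 to 96.6), then fibroblasts at 15.3 (9.79 to 22.7) and 35 (25.9 to 46.2). Keratinocytes had 21 (17.8 to 24.5), 14.1 (11.4 to 17.3) and 18.3 (15.4 to 21.5) in WT_Ctrl, WT_UV and RP_UV. Endothelial cells and pericytes did not differ beyond their intervals in either library, nor did fibroblasts and keratinocytes in WT_Ctrl. Fibroblast Osmr was 2.29-fold (1.38 to 3.9) higher in RP_UV than in WT_Ctrl, whereas the ratio was 0.605 (0.375 to 1.01) in endothelial cells and 0.872 (0.691 to 1.1) in keratinocytes. Within the fibroblast cluster that both libraries filled, the Osmr ratio was 1.14 (0.5 to 2.82).

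Leukocytes had few Osmr UMIs. Immune classes together held 1, 4 and 17 of the 269, 132 and 412 Osmr UMIs of WT_Ctrl, WT_UV and RP_UV. Dendritic cells of RP_UV had 4 UMIs in 2 of 83 cells, at 9.71 CPM (2.64 to 24.9). That interval overlapped the one of RP_UV keratinocytes, 15.4 to 21.5, so the count is too small to place them. Thinned to 1000 UMIs, 12.5% (4.73 to 25.2) and 9.63% (6.06 to 14.3) of WT_Ctrl and RP_UV endothelial cells carried an Osmr UMI, and 2 of 501 RP_UV neutrophils and no T cell did. The library level of Osmr, 10.4, 2.04 and 14.1, was lowest in WT_UV, which held 60 stromal cells and 515 keratinocytes. Among 12226 genes and over 31 class and library sums, the genes whose levels were most like Osmr were Ptprg, Col4a2 and Cav1 (Spearman rho 0.97, 0.94 and 0.94), a description of sums that share libraries.

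Il6st, the shared signal chain, was found in every non-immune class with at least 30 cells and in most leukocytes. Endothelial cells were highest, at 537 CPM (427 to 666) in WT_Ctrl and 652 (598 to 708) in RP_UV, followed by pericytes or smooth muscle cells at 371 (306 to 445) and 332 (298 to 368). Fibroblasts (172 and 213) and Schwann cells (234 and 171), the glia of skin nerves, came next. Macrophages had 79.7 (73.3 to 86.6), 69.4 (66.3 to 72.5) and 47.8 (43.9 to 52), and dendritic cells 142, 104 and 84.9. Neutrophils had 0 UMIs in WT_UV, which allows up to 15.2 CPM, and 9.77 (4.47 to 18.6) in RP_UV. In keratinocytes Il6st was 47.6 (42.8 to 52.8), 25.4 (21.7 to 29.7) and 17.9 (15.1 to 21.1), so RP_UV was at 0.376 (0.307 to 0.458) of WT_Ctrl.

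Il6ra, the receptor that binds interleukin-6 itself, was highest in myeloid cells. Macrophages had 206 (196 to 217) in WT_Ctrl, 135 (130 to 139) in WT_UV and 88.2 (82.9 to 93.9) in RP_UV, with no overlap of the intervals. In all 8 macrophage clusters with at least 30 cells in both WT_Ctrl and WT_UV the ratio was below 1, from 0.459 to 0.854, and its interval lay below 1 in 5. For RP_UV over WT_Ctrl, clusters with as many cells in both had ratios of 0.305 (0.0585 to 1.01) and 0.768 (0.476 to 1.18). For RP_UV over WT_UV the interval lay below 1 at 0.434 (0.277 to 0.657) and 0.595 (0.41 to 0.859). It held 1 in the other such clusters, with ratios of 0.244 to 1.02. Langerhans cells, the dendritic-like cells of the epidermis, had 182 (139 to 234) and 176 (151 to 205) in WT_Ctrl and WT_UV, and neutrophils had 213 (154 to 288) and 173 (147 to 202) in WT_UV and RP_UV. Keratinocytes had 97.1 (90.2 to 104), 55.7 (50.1 to 61.8) and 20.3 (17.3 to 23.7), and RP_UV stood at 0.209 (0.175 to 0.249) of WT_Ctrl and 0.364 (0.301 to 0.44) of WT_UV. The thinned share of keratinocytes with an Il6ra UMI was 8.61%, 5.68% and 2.03%, in the same order as the levels. In pericytes or smooth muscle cells RP_UV was at 0.317 (0.128 to 0.793) of WT_Ctrl, from 12 UMIs in RP_UV and 11 in WT_Ctrl. The genes most like Il6ra over the sums were Gm20703, Camk1d and Pstpip2 (rho 0.87, 0.85 and 0.83).

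**Figure D3:**
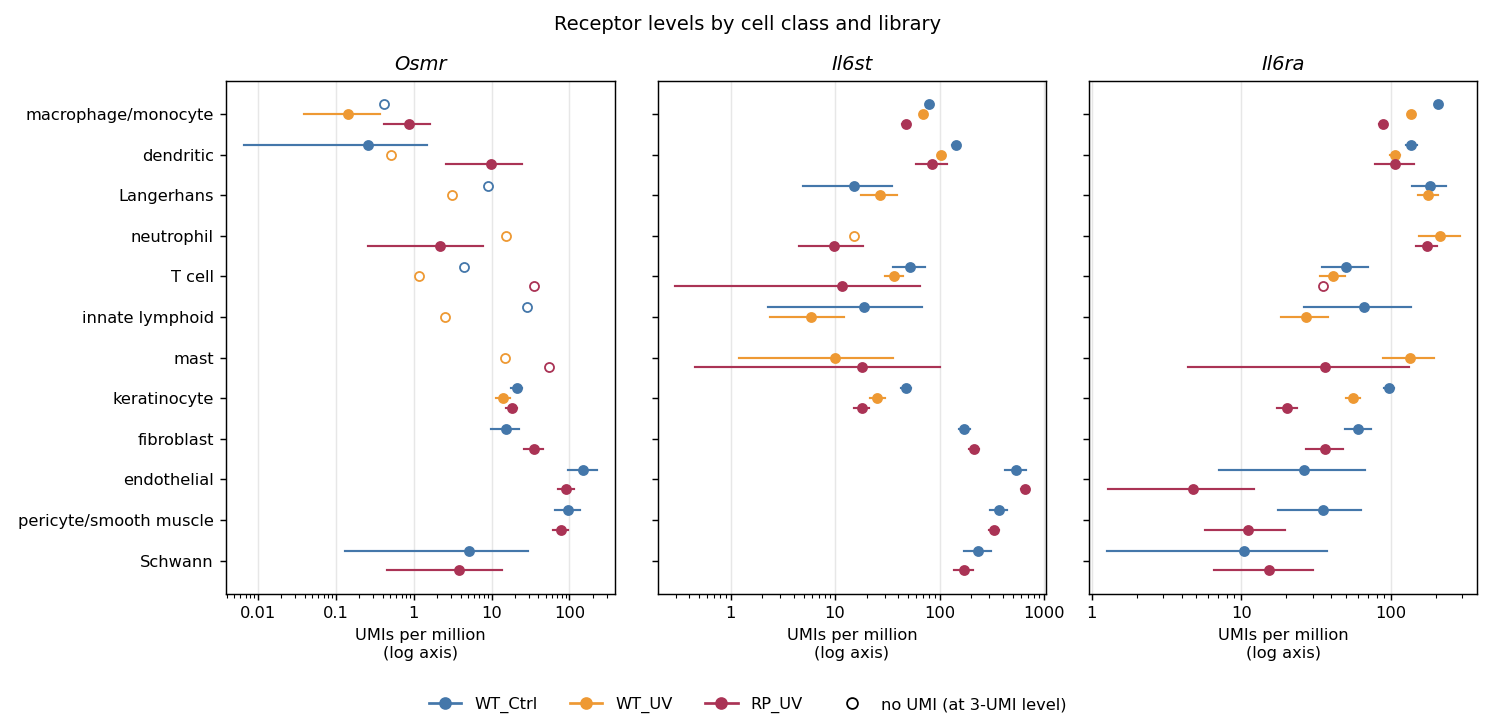
Points are levels of Osmr, Il6st and Il6ra in CPM on a log axis, by cell class and library for classes with at least 30 cells, with exact 95% Poisson intervals; open circles mark classes with no UMI, placed at the level of 3 UMIs. Endothelial Osmr was at 151 and 91.1 and macrophage Osmr at no more than 0.872, while Il6ra in macrophages was 206 in WT_Ctrl, 135 in WT_UV and 88.2 in RP_UV.

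Keratinocytes of the libraries lay mostly in different clusters. The 3 largest WT_Ctrl clusters had 263, 220 and 165 of 1181 cells and held 26, 3 and 26 of the 1095 RP_UV cells, and the largest RP_UV cluster, of 143 cells, held 1 WT_Ctrl cell. Over the class, Krt14, a keratin of the basal layer, was at 5019 CPM in WT_Ctrl and 12726 in RP_UV, and Krt10, a keratin of the differentiating layers, at 5106 and 2967. The layers themselves were not compared, because 1 cluster placed with the basal layer had Krt1, Krt10 and Krtdap, markers of the differentiating layers, among its leading genes.

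In the 4 keratinocyte clusters with at least 30 cells in both WT_Ctrl and RP_UV, Il6ra was lower in RP_UV. The interval of the ratio lay below 1 in 2 of them: 137 and 58.7 CPM, a ratio of 0.428 (0.217 to 0.782), in a cluster led by Krtdap, Sbsn and Krt10, and 90.2 and 20.5, a ratio of 0.227 (0.0488 to 0.894), in one led by Krt14, Krt5 and Krt15. Socs3 was at 24.6 and 58.7 in the first of these, a ratio of 2.39 (1.01 to 5.73), and its ratios in the other 3 were 0.455 to 0.764, with intervals that held 1. The lower Socs3 of RP_UV keratinocytes as a class, given below, was therefore not seen beyond counting error within a cluster that both libraries filled.

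Socs3 was high in neutrophils and in Schwann cells. Neutrophils had 554 CPM (455 to 668) in WT_UV and 1144 (1076 to 1216) in RP_UV, a ratio of 2.07 (1.7 to 2.54). Schwann cells had 676 (565 to 803) in WT_Ctrl and 941 (860 to 1028) in RP_UV. Macrophages had 43.8 (39.1 to 48.9), 97.8 (94.2 to 102) and 112 (106 to 119), so WT_UV was 2.23-fold (1.99 to 2.52) and RP_UV 2.56-fold (2.26 to 2.91) above WT_Ctrl. Dendritic cells had 98.3, 94.6 and 204, with RP_UV 2.07-fold (1.62 to 2.63) above WT_Ctrl. Endothelial cells had 295 and 525 and fibroblasts 217 and 412 in WT_Ctrl and RP_UV, ratios of 1.78 (1.31 to 2.48) and 1.9 (1.66 to 2.17). Keratinocytes as a class went the other way, at 149 (140 to 158), 73.2 (66.8 to 80.2) and 64.1 (58.6 to 69.9).

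Within clusters that both libraries filled, the Socs3 ratios of RP_UV over WT_Ctrl were 4.04 (2.48 to 6.74) in dendritic cells, 3.38 (1.78 to 7.2) in endothelial cells, 2.65 (1.62 to 4.58) in pericytes or smooth muscle cells and 2.41 (1.46 to 4.19) in fibroblasts, with 1 such cluster in each class. The pericyte cluster held 36.6% of its class in WT_Ctrl and 32.8% in RP_UV. Over that whole class the thinned share of cells with a Socs3 UMI was not higher in RP_UV. It was 21.7% (12.7 to 33.3) in WT_Ctrl and 19.7% (14.8 to 25.3) in RP_UV. In macrophages the clusters differed among themselves for WT_UV over WT_Ctrl: of 8, the interval lay above 1 in 2, at 1.86 (1.03 to 3.21) and 1.9 (1.18 to 3.2), and below 1 in 2, at 0.181 (0.122 to 0.275) and 0.585 (0.384 to 0.932). For RP_UV over WT_UV it lay above 1 at 21.2 (7.13 to 104), 11.1 (4.53 to 35.5) and 6.28 (3 to 13), from 3, 5 and 18 WT_UV UMIs. The other macrophage clusters that both filled had ratios of 0.836 to 1.83, with intervals that held 1. For RP_UV over WT_Ctrl the macrophage ratios were 5.34 (2.08 to 15.3) and 1.31 (0.622 to 2.52).

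The stress genes moved with Socs3 in several classes. Their sum was 3819, 7003 and 6846 CPM in macrophages, where Osm and Socs3 were also higher in the UVB libraries, and 8206, 4806 and 2749 in keratinocytes, where Socs3 was lower. In dendritic cells the sum was 11386, 8964 and 7589, against the direction of Socs3 in RP_UV. In neutrophils it was 31387 and 28686. The part of these genes in the Socs3 values was not tested. The genes most like Socs3 over the sums were Inpp5a, Cdc42ep2 and Fbn1 (rho 0.83, 0.82 and 0.8).

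Stat3, the transcription factor of the axis, differed by less than 2-fold in the classes given here. Macrophages had 124 (116 to 133), 125 (121 to 130) and 143 (137 to 150), dendritic cells 107, 102 and 94.6, and keratinocytes 87.2, 73.1 and 65. The largest ratio in a stromal class was in fibroblasts, at 83.4 (69.7 to 98.9) and 146 (126 to 167) in WT_Ctrl and RP_UV, or 1.75-fold (1.39 to 2.19). The most alike genes were Bcl3, Icam1 and Casp4, each at a rho of 0.75, of which Bcl3 and Icam1 were also on the list of STAT3-responsive genes described below.

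**Figure D4:**
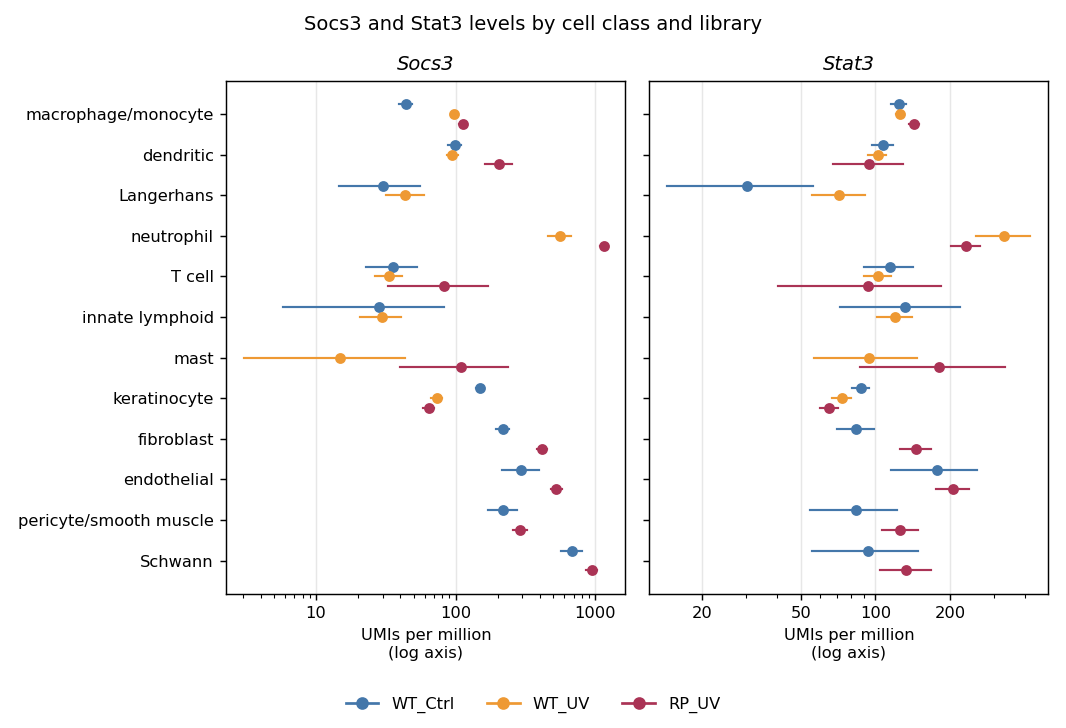
Points are levels of Socs3 (left) and Stat3 (right) in CPM on a log axis, by cell class and library for classes with at least 30 cells, with exact 95% Poisson intervals. Socs3 was at 1144 in RP_UV neutrophils and lay above WT_Ctrl in the UVB libraries in macrophages but below it in keratinocytes, while Stat3 stayed between 124 and 143 in macrophages.

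Melanocytes, the pigment cells, reached 30 cells only in RP_UV, with 44. They had 3 UMIs of Il6, at 45.4 CPM (9.37 to 133), 24 of Socs3, at 363 (233 to 541), 5 each of Il6st and Stat3, at 75.7 (24.6 to 177), and 1 of Osmr, and none of Osm, Lif, Il11 or Il6ra, where a count of 0 allows up to 45.4.

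Lymphocytes and mast cells had few Osm UMIs and no Osmr UMI in any library. T cells had 1, 11 and 2 UMIs of Osm in WT_Ctrl, WT_UV and RP_UV, the last at 23.4 CPM (2.83 to 84.5) in 49 cells. Their Il6ra was at 50.2 CPM (34.8 to 70.2) in WT_Ctrl and 41 (33.5 to 49.5) in WT_UV, and the 49 T cells of RP_UV had none, where a count of 0 allows up to 35.1. Their Stat3 was at 114, 102 and 93.5, and their Socs3 at 35.5, 33.2 and 81.8, the last from 7 UMIs. Innate lymphoid cells and natural killer cells of WT_UV had 6 and 1 UMIs of Osm, and mast cells had none in WT_UV and 3 in RP_UV. Those 3 UMIs, from 38 mast cells, stood for 54.3 CPM (11.2 to 159), beside 24.8 in RP_UV macrophages. So few UMIs do not show a low level. Mast cells of WT_UV (93 cells) had Il6ra at 134 CPM (88.2 to 195) and Stat3 at 94.1 (56.7 to 147). Mature dendritic cells of WT_UV (36 cells) had Osm at 11.1 (4.45 to 22.8), from 7 UMIs in 3 cells, Il6st at 96.5 (73.8 to 124) and Stat3 at 188 (156 to 225).

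The same measure of likeness was taken for both ligands and the shared chain, over the same 31 sums, which share libraries and differ in depth. The genes most like Osm were Cyba, Adam8 and Mapkapk2 (rho 0.83, 0.82 and 0.82), those most like Il6 were Grk5, Myadm and Itga5 (0.82, 0.8 and 0.79), and those most like Il6st were Cnn3, Pdia5 and Rras (0.91, 0.88 and 0.88). Cyba and Adam8 are known from phagocytes. Between Osm and Osmr rho was -0.47, and between Osmr and Il6st it was 0.68.

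Counts of the 9 genes at a fold of 2 or more either way were set beside all genes with at least 20 UMIs in the summed pair. For WT_UV over WT_Ctrl in macrophages, 2 of 6 counted genes (Osm and Socs3, both higher) passed that fold, beside 9.94% of all genes. In dendritic cells it was 2 of 7 (Osm higher, Il6 lower) beside 5.34%, and in keratinocytes 1 of 5 (Socs3, lower) beside 8.14%. For RP_UV over WT_UV it was 1 of 7 in macrophages (Il6) beside 12.1%, 3 of 6 in dendritic cells (Il6, Osm and Socs3, all higher) beside 19.4%, and 1 of 5 in keratinocytes (Il6ra, lower) beside 13.5%. The dendritic Il6 rested on 4 RP_UV UMIs, and its interval, 0.626 to 7.29, held 1. In neutrophils 4 of 6 passed (Osm and Socs3 higher, Il6 and Lif lower) beside 19.2%, and the lower values of Il6 and Lif came from the single Mcpt8 cell of WT_UV.

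For RP_UV over WT_Ctrl, 4 of 6 counted genes passed a fold of 2 in macrophages (Il6, Osm and Socs3 higher, Il6ra lower) beside 13.6% of all genes. In keratinocytes 3 of 5 passed, all lower (Il6st, Il6ra and Socs3), beside 21%. Dendritic cells had 2 of 6 (Osm and Socs3) beside 20%, and fibroblasts 2 of 6 (Il6 and Osmr, both higher) beside 12%. Pericytes or smooth muscle cells had 2 of 6 (Il6 higher, Il6ra lower) beside 13.3%, and endothelial cells 1 of 5 (Il6) beside 18.3%, a share near the background. These comparisons share libraries and are not independent of each other.

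Other genes of the pathway were counted from lists chosen with earlier results of these data known. Their counts beside all genes are therefore descriptive, and STAT3 activity was not tested. Of 16 genes known to respond to STAT3, 15 were counted in fibroblasts and 10 were at a fold of 2 or more higher in RP_UV than in WT_Ctrl, with none lower, beside 7.28% of all genes higher; their median log2 fold was 1.25 beside 0.14 for all genes. Saa3, which encodes a serum amyloid A protein, was at 0.636 and 992 CPM (1 and 1390 UMIs, a ratio of 1558 with an interval of 279 to 61590), Hp, which encodes haptoglobin, at 1.91 and 1871, and Timp1, an inhibitor of matrix proteases, at 21.6 and 529. These fibroblasts lay mostly in different clusters in the libraries, as given above. In the cluster with 36 and 72 cells, where Hp was among the leading genes, Saa3 had 0 UMIs in WT_Ctrl and 950 in RP_UV and Timp1 was at 49.3 and 607. Not all of the list followed there. The interval of the ratio held 1 for Bcl3, Mcl1, Ifitm3, Il4ra, Cebpd and Icam1, with ratios of 0.651 to 1.95. It lay above 1 for the others, except Batf, which had 0 UMIs in WT_Ctrl and 1 in RP_UV. In keratinocytes 8 of 15 were higher and 1 lower, beside 10.2% and 10.7% of all genes (median 1.43 beside -0.05), and Lcn2, an iron-binding lipocalin, went from 1.71 to 135 and Hp from 0.132 to 116 while Icam1, an adhesion molecule, went from 58.2 to 22.6. RNA of neutrophil genes summed to 3.03 and 194 CPM in the same keratinocytes, with 2 and 0 of the 5 genes at 0. In the fibroblasts it summed to 0.636 and 35, with 4 and 1 at 0. In RP_UV keratinocytes S100a8 was at 82.4, S100a9 at 106 and Retnlg at 0.635, beside 15102, 23631 and 2268 in RP_UV neutrophils. Whether the S100a8 and S100a9 UMIs came from neutrophils or from the keratinocytes was not tested. The part of the neutrophil genes in these values was not tested either.

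In macrophages 6 of 16 STAT3-responsive genes were higher in RP_UV than in WT_Ctrl and none lower, beside 6.64% of all genes higher (median 0.7 beside 0), with Saa3 at 0.561 and 216. For WT_UV over WT_Ctrl it was 6 of 14, beside 6.69% (median 0.53 beside 0.03), with Pim1, a kinase, at 107 and 332 and Timp1 at 3.51 and 24.8. For RP_UV over WT_Ctrl endothelial cells had 4 of 12 higher and 2 lower, beside 9.68% and 8.58% of all genes (median 0.65 beside -0.03), with Lrg1 at 661 and 1868. Pericytes or smooth muscle cells had 3 of 12 higher beside 6.2% (median 0.4 beside -0.08). Dendritic cells had 5 of 11 higher and 1 lower, beside 8.77% and 11.2% (median 0.32 beside 0.08).

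Of the kinases, the phosphatase and the inhibitors of the pathway described here (Jak1, Jak2, Tyk2, Ptpn11, Socs1, Socs2, Cish and Pias3), 2 SOCS family genes were at a fold of 2 or more in WT_UV over WT_Ctrl macrophages, Cish at 1.68 and 25.7 CPM and Socs2 at 0.281 and 3.67, and they were at 5.41 and 2.96 in RP_UV. In keratinocytes Cish (40.9 and 10.9 in WT_Ctrl and RP_UV) and Pias3 (9.23 and 4.57) were lower in RP_UV. In endothelial cells Socs2 was at 98.2 in WT_Ctrl and 199 in RP_UV. None of these genes reached that fold in fibroblasts or pericytes.

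The other receptors and ligands of the family were mostly too scarce to count. Lifr, the receptor for leukemia inhibitory factor, was at 411 CPM in WT_Ctrl and 175 in RP_UV macrophages, a ratio of 0.426 (0.402 to 0.451). Il11ra1, the interleukin-11 receptor, was at 87.6 in WT_Ctrl, 59.9 in WT_UV and 21.6 in RP_UV keratinocytes, and Il31ra, a receptor for interleukin-31 that pairs with Osmr, was at 1.58, 0.466 and 4.44. In pericytes or smooth muscle cells Lifr was at 125 in WT_Ctrl and 52.9 in RP_UV, a ratio of 0.425 (0.278 to 0.656). Cntfr, the receptor for ciliary neurotrophic factor, was at 47.1 and 16.4 in fibroblasts, a ratio of 0.348 (0.208 to 0.563), and at 0.923 and 2.54 in keratinocytes, a ratio of 2.75 (1.12 to 7.7). Of the ligands, Clcf1 was at 0.561, 3.12 and 0.61 in macrophages.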

How the data were processed

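Single-cell libraries of CD45+ bead-enriched dorsal skin cells were compared, 1 library in each of 3 groups. The deposited matrices hold the authors' unnormalized UMI counts, made with Cell Ranger 6.1.1 according to the matrix headers and the mm10 build per the labels. No rows or columns were left unmapped. Cells were kept, as in the study's methods, with under 10% mitochondrial UMIs, more than 200 genes, and fewer than 4000 genes (6000 in WT_UV). Total counts over all barcodes were 34985549, 82722013 and 37689836 UMIs in WT_Ctrl, WT_UV and RP_UV.

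The kept cells were integrated and clustered with Seurat 5.3.0 and sctransform 0.4.2 (2995 features, 30 dimensions, resolution 0.8) after the 9 genes had been removed from the features, and clusters of at least 100 cells were divided again with scanpy 1.11.5 and leidenalg 0.10.2 (resolution 0.5). Of 138 clusters, 98 were named from fixed marker panels and 40 were left unnamed (20 deep and mixed, 13 close to 2 panels, 5 with fewer than 3 markers detected, 2 shallow); the limits for naming were set after the clusters were seen. Doublets were not removed: Scrublet called 1.32%, 0.0191% and 0.0329% of cells, which was taken as a failure of the caller.

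Raw UMIs were summed by class and library, and intervals were computed with SciPy 1.17.1. The log2 fold used a pseudocount of 1 CPM (UMIs per 1000000). The floor for a count of 0 was 3 UMIs. All 9 genes were measured in every class with at least 30 cells in a library, though not every value is given. Genes of other lists were counted. They were named only where their fold was 2 or more with an interval on 1 side of 1 in a class described. Not all that met this are named. Likeness named the 3 genes of highest Spearman rho, for members with at least 200 UMIs, over sums of at least 100000 UMIs. The ratio and its interval were tested on simulated Poisson counts only. Those counts do not hold UMIs concentrated in single cells, so that case was not tested. Some genes of the lists are not reported here. The genes and lists were chosen with earlier results of these data known. Promoters came from RefSeq.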

Additional observations from a re-analysis of the deposited data

Results flagged for a closer look

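Socs3 differed in opposite directions between cell classes, and the difference between classes was not tested. For RP_UV over WT_Ctrl its ratio was 2.07 in dendritic cells and 2.56 in macrophages, against 0.43 in keratinocytes as a class, whose clusters differed between the libraries. For WT_UV over WT_Ctrl it was 2.23 in macrophages and 0.492 in keratinocytes. Il6 also went both ways for RP_UV over WT_UV, at 2.27 in macrophages and 0.0156 in neutrophils, where the WT_UV value came from 1 cell with basophil markers; this difference was not tested either.

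Barcodes removed by the cell filter, which no comparison used, held Il6 and Osm above the level in the removed barcodes of WT_Ctrl. Il6 was at 2.81 CPM in WT_UV and 5.02 in RP_UV against 0.762 in WT_Ctrl, and Osm at 8.37 and 7.71 against 0 UMIs, which allows up to 0.401.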

How the results depend on the processing

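Of 1021 fold values recomputed for 127 results, 958 kept their sign, 895 lay within the counting interval of the reported value and 3 called values turned. The turned values were all Il6 in neutrophils for RP_UV over WT_UV, at -5.62 on the log2 scale as reported, 1.96 with classes from marker UMIs, 1.85 without integration and 2.09 without the neutrophil that carried Mcpt8 (an alternative added after seeing the data). The log2 fold of Osm in macrophages for WT_UV over WT_Ctrl was 3.53, 1.99 with a pseudocount of 10 and 1.61 without the clusters richest in Osm (added after seeing the data), and for RP_UV over WT_Ctrl 2.87 and 1.47 with a pseudocount of 10. For RP_UV over WT_UV it was -0.66, -0.40 with classes from marker UMIs, -0.43 with unnamed clusters under their best panel and -1.07 with the limit of 4000 genes in every library. Without those Osm-rich clusters it was 1.17. They were picked for their Osm and were almost all WT_UV cells, so leaving them out lowers the WT_UV level by construction. How much of the turn this makes was not tested. At a fold of 1.5 the number of members past it was 3 in keratinocytes and 4 in macrophages for WT_UV over WT_Ctrl, 3 in macrophages for RP_UV over WT_UV, and 3 in endothelial cells and 5 in fibroblasts for RP_UV over WT_Ctrl. With at least 50 UMIs it was 2 in neutrophils for RP_UV over WT_UV and 1 each in dendritic cells, fibroblasts and pericytes for RP_UV over WT_Ctrl, and it went from 4 to 3 in macrophages for RP_UV over WT_Ctrl and from 3 to 2 in dendritic cells for RP_UV over WT_UV. The pseudocount and the minimum act by construction; the cause of the other shifts was not tested. Of 27 library levels, 18 moved past their interval when all barcodes were used. Thinning to 2000 UMIs moved 81 of 111 shares, which rise with depth. No paired analysis was possible because each group had 1 library. Depth limits Lif and Il11 and the classes with few cells.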

Other observations

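Beyond the classes described above, Stat3 in Langerhans cells was at 30.3 CPM (14.5 to 55.8) in WT_Ctrl and 71.6 (55.7 to 90.6) in WT_UV, a ratio of 2.36 (1.21 to 5.14), from 69 and 68 cells. Clcf1, the gene for the ligand cardiotrophin-like cytokine, was at 29.4 in WT_UV and 81.8 in RP_UV T cells, the latter from 7 UMIs in 49 cells, a ratio of 2.79 (1.08 to 6.02).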
